A study of Mus musculus with 6 samples.

Results

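Desmosomes are the junctions that fasten the keratin filaments of neighbouring squamous cells to each other. The genes described here encode their adhesive cadherins (*Dsc1*, *Dsc2*, *Dsc3*, *Dsg1a*, *Dsg2*, *Dsg3*), their armadillo plaque proteins (*Jup*, *Pkp1*, *Pkp3*) and the plakin *Dsp*, and were taken as a family by function. A gene was read from a probe set whose annotation names that gene alone, and where a gene had several, from its brightest one, judged by the mean of all arrays. Of the 10 genes, 8 could be read this way among 19938 genes in all. *Dsc1* was named on no probe set used here, and *Dsg1a* only on a probe set that also names *Dsg1b* and *Dsg1c*.

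Gene expression had been measured with microarrays in esophageal epithelium of 6 mice aged 3 months, on a mixed genetic background. All 6 animals carried Klf4loxp/loxp, both copies of the transcription factor gene *Klf4* flanked by loxP sites. The 3 mutant animals also carried ED-L2-Cre, a Cre recombinase transgene under a viral promoter active in squamous epithelia such as that of the esophagus, while the 3 controls were littermates without Cre. Replicate 1 was a male and replicates 2 and 3 were females in either genotype, and each array was a single animal. With so few animals, precision is limited throughout.

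In a desmosome, the desmocollins and desmogleins of facing cells bind each other outside the membrane. Inside, plakoglobin (*Jup*) and the plakophilins bind their tails, and desmoplakin (*Dsp*) links this plaque to keratin. In stratified epithelia the cadherins are layered: in the epidermis desmocollin 3 and desmoglein 3 are strongest in the lower layers, desmocollin 1 and desmoglein 1 in the upper layers, and desmocollin 2 and desmoglein 2 are the broadly distributed pair that simple epithelia also use. The question put to the arrays was whether these genes, and the lower-layer against the upper-layer isoforms, differed with the genotype.

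Facts of the whole table were few. Array medians over the genes compared lay between 5.37 and 5.49 on the log2 scale, and correlations between arrays, taken across genes, between 0.974 and 0.992. The targeted gene did not read lower on the arrays labelled mutant: *Klf4* was at 9.75, 10.15 and 10.06 under the control label and at 10.28, 10.50 and 10.28 under the mutant label, and the difference of 0.37 ± 0.13 (SE) did not pass (limma adjusted p = 0.314). Where its probes lie relative to the deleted part is not given in the sources used here, so this checks nothing, and every direction below rests on the labels. The epithelial label was matched by bright suprabasal and basal keratins, with *Krt4* and *Krt5* at control means of 13.68 and 12.53. Genes of muscle and stroma were also read: skeletal muscle markers had array means from 5.98 to 10.37.

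Among the desmosomal cadherins, *Dsc2* rose on the mutant arrays, *Dsg3* had higher values that did not pass, and *Dsc3* and *Dsg2* did not pass either. The plaque genes *Jup*, *Pkp1*, *Pkp3* and *Dsp* had differences of at most 0.085 on the log2 scale in either direction, none past the test. In all, 1 of the 8 genes rose, 0 fell and 7 did not pass an adjusted p of 0.05 in limma. Over all genes 1.04% passed, with 0.366% higher and 0.672% lower on the mutant arrays. The median difference of the 8 genes was 0.020 and that of all 19938 genes 0.022. The groups did not overlap for 2 of the 8 genes, both higher on the mutant arrays, against 10.1% of all genes in that direction and 18.1% in either direction. In bulk tissue, fewer cells of a type and less RNA per cell cannot be told apart, which holds for every gene below.

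**Figure D1:**
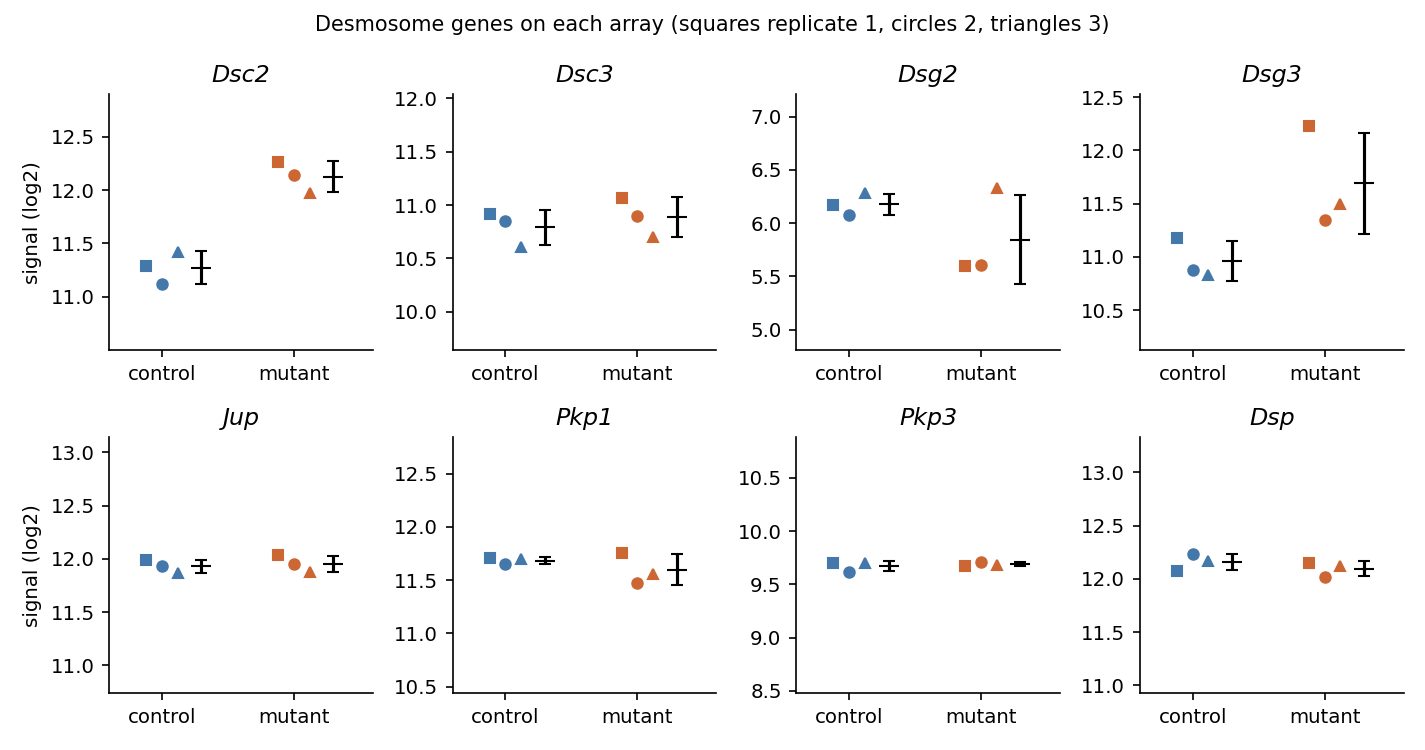
Signal (log2) of the 8 measured desmosome genes on each array, with control in blue and mutant in orange; squares are replicate 1 (male), circles replicate 2 and triangles replicate 3 (both female), and bars give the mean ± SD of the 3 arrays beside them. Each panel spans the same range of log2 units around its own gene, so heights can be set side by side but levels cannot. Only *Dsc2* and *Dsg3* have all mutant points above all control points.

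*Dsc2* encodes desmocollin 2, the desmocollin with the widest distribution. Its signal was 11.28, 11.12 and 11.42 on the control arrays and 12.26, 12.14 and 11.97 on the mutant arrays. All 3 mutant arrays stood above all 3 controls, and the gap between the groups was wider than the spread inside either of them. The means were 11.27 ± 0.15 and 12.13 ± 0.15 (SD, n = 3 each), a 1.81-fold rise (0.85 ± 0.12 on the log2 scale, SE; 95% interval 1.48-fold to 2.20-fold; limma adjusted p = 0.0247). By size, this was rank 57 of the 73 genes that rose, and 2.22% of all genes had a larger difference in either direction. The male pair differed by 0.98 and the female means by 0.79.

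The direction of the *Dsc2* difference was the same in all 16 alternative settings, with values between 0.78 and 0.93, but its call was not. With an array left out, the adjusted p was 0.0567 without control 1, 0.0674 without control 2, 0.0855 without control 3, 0.0894 without mutant 1 and 0.0880 without mutant 2, and only the fit without mutant 3 kept the call. In the 4 females alone the adjusted p was 0.142. The size of the difference moved little in these fits, and its SE ran from 0.124 to 0.160, against 0.122 as reported. The fit without mutant 3, which kept the call, also had an array left out (SE 0.124, adjusted p = 0.0486). With the replicate number as a block and no array left out, the call was lost (SE 0.137, adjusted p = 0.0863). Why the call was lost was not tested.

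**Figure D2:**
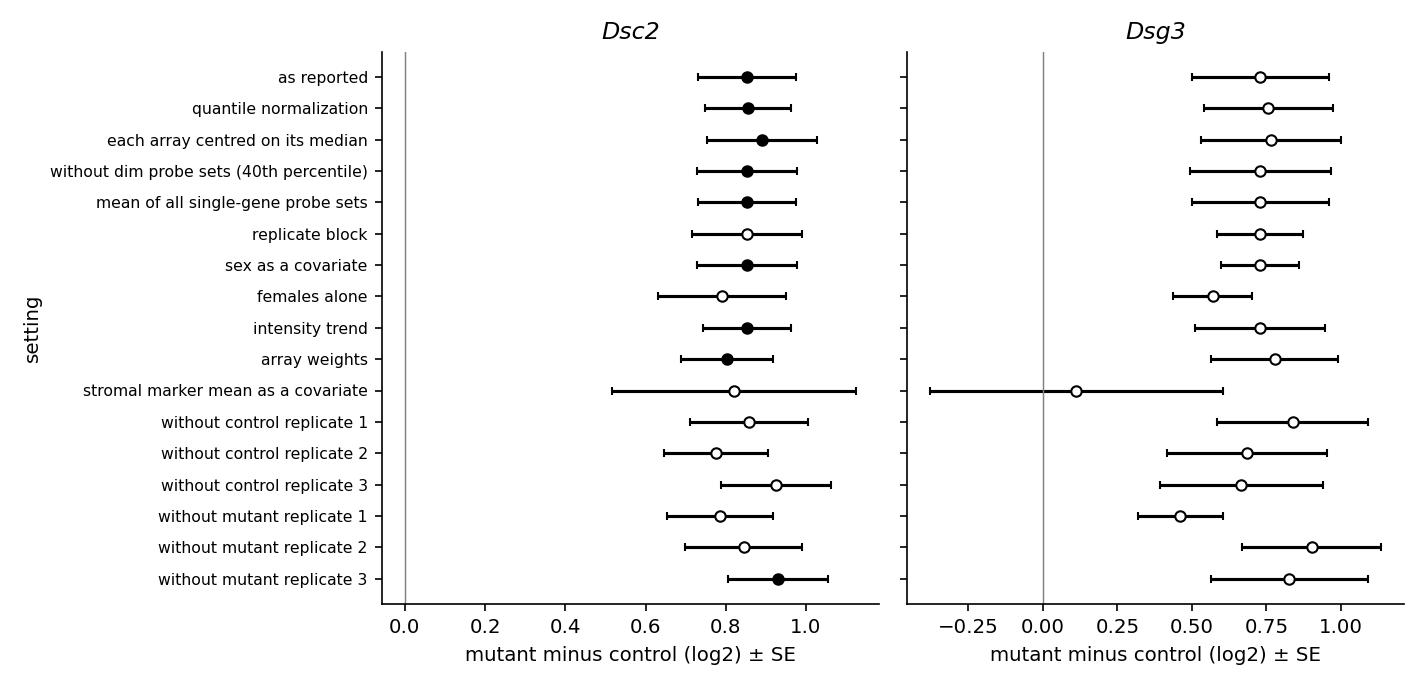
Difference between mutant and control (log2) ± SE for *Dsc2* (left) and *Dsg3* (right), as reported and in each of 16 alternative settings; filled points pass an adjusted p of 0.05 in limma and open points do not. *Dsc2* stays between 0.78 and 0.93 while its call comes and goes, and *Dsg3* passes in no setting and ranges from 0.11 to 0.90.

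*Dsc3*, the desmocollin of the lower layers in epidermis, lies next to *Dsc2* in the genome. It read 10.92, 10.85 and 10.61 on the control arrays and 11.07, 10.90 and 10.70 on the mutant arrays. The groups overlapped in part, with mutant 1 above every control and control 3 below every mutant. The difference was 0.096 ± 0.133 (SE; adjusted p = 0.839), and its 95% interval ran from 0.86-fold to 1.33-fold. Set against *Dsc3* on the same array, *Dsc2* moved apart: the difference of their deviations from their own 6-array means was -0.50, -0.59 and -0.050 on the control arrays and 0.34, 0.38 and 0.42 on the mutant arrays. The mutant arrays lay close together in this measure and above all controls, with control 3 nearest to them. This contrast joins genes chosen with their values known and was not tested.

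The desmogleins did not move as a set. *Dsg3*, encoding desmoglein 3 of the lower layers and the main target antigen of pemphigus vulgaris, read 11.18, 10.87 and 10.83 on the control arrays and 12.23, 11.35 and 11.50 on the mutant arrays. Mutant 1 stood well above the rest, and the other mutant arrays lay nearer to the controls, though still above them. The difference was 0.73 ± 0.23 (SE), 1.66-fold with a 95% interval of 1.15-fold to 2.40-fold, and did not pass (adjusted p = 0.231). It was 0.46 without mutant 1 (adjusted p = 0.309) and 0.57 in the females alone (adjusted p = 0.183), against 1.05 in the male pair. With the array mean of fibroblast and smooth muscle markers as a covariate it was 0.11 ± 0.49, in a fit that cannot separate these markers from genotype.

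*Dsg2*, the desmoglein of simple epithelia and of heart, was the only cadherin with a lower mutant mean among *Dsc2*, *Dsc3*, *Dsg2* and *Dsg3*. Its signal was 6.17, 6.08 and 6.28 on the control arrays and 5.60, 5.61 and 6.33 on the mutant arrays. Mutants 1 and 2 lay below every control, while mutant 3 was the highest of all 6 arrays. The difference of -0.33 ± 0.20 (SE) did not pass (adjusted p = 0.583; 95% interval 0.58-fold to 1.09-fold).

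Upper-layer cadherins could be read only in part. *Dsg1b*, 1 of 3 mouse desmoglein 1 genes, stood in for *Dsg1a* and *Dsc1*, a choice made after seeing which genes had probe sets. It read 11.50, 11.59 and 11.45 on the control arrays and 11.45, 11.59 and 11.59 on the mutant arrays, a difference of 0.030 ± 0.095 (SE; adjusted p = 0.938). The groups covered the same range. The probe set whose annotation names *Dsg1a*, *Dsg1b* and *Dsg1c* together belongs to no single gene and was not fitted. Its signal was 12.45, 12.42 and 12.44 on the control arrays and 12.17, 12.34 and 12.32 on the mutant arrays. Here all mutant arrays lay below the controls, by 0.16 in the mean. Of all genes compared, 8.00% had their groups apart in that direction.

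The comparison of lower-layer with upper-layer isoforms therefore rested on *Dsc3* and *Dsg3* against *Dsg1b*. The mean deviation of *Dsc3* and *Dsg3* from their 6-array means, minus that of *Dsg1b*, was -0.0032, -0.28 and -0.29 on the control arrays. It was 0.64, -0.021 and -0.048 on the mutant arrays. Mutant 1 stood apart, and mutants 2 and 3 lay below control 1. The means differed by 0.38, beside SDs of 0.16 and 0.39 (n = 3 each), and by 0.16 without mutant 1. With *Dsc2* and *Dsg2* added to the first side the difference was 0.31. No test was made of these contrasts, and they turned to -0.076 and -0.056 with the marker mean of fibroblasts and smooth muscle as a covariate. That fit cannot separate the markers from genotype, so the turned signs decide nothing.

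The desmosomal cadherin genes form a single cluster on chromosome 18, with no other protein-coding gene between them in assembly GRCm38.p6. Of the 9 genes in the cluster 7 were measured, in the order *Dsc3*, *Dsc2*, *Dsg1c*, *Dsg1b*, *Dsg4*, *Dsg3* and *Dsg2*, with *Dsc1* after *Dsc2* and *Dsg1a* after *Dsg1c* unread. *Dsc2* was the only 1 of the 7 to pass, and its measured neighbours *Dsc3* and *Dsg1c* differed by 0.096 and -0.15. *Dsg3* and *Dsg2*, side by side at the far end, had differences of opposite sign. *Dsg1c*, a further desmoglein 1 gene, and *Dsg4*, the desmoglein of hair and upper epidermis, had means under the dim limit of 4.72, the 40th percentile of all gene means, so their differences say little.

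**Figure D3:**
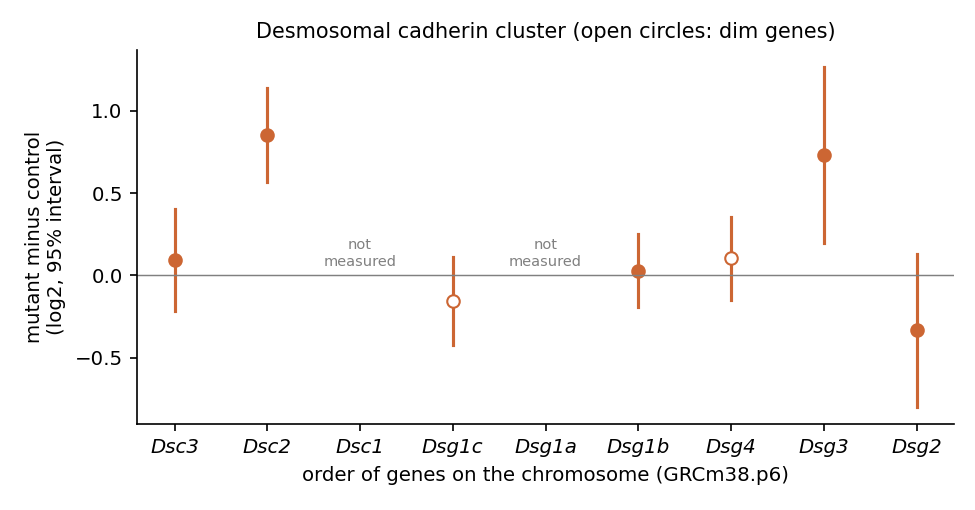
Difference between mutant and control (log2, point) with its 95% interval (line) for the desmosomal cadherin genes in their order on the chromosome; open circles are genes under the dim limit. The *Dsc2* value of 0.85 stands between *Dsc3* at 0.096 and the unread *Dsc1*.

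The plaque genes gave close values on all 6 arrays. *Jup*, encoding plakoglobin, which desmosomes share with adherens junctions, read 11.99, 11.93 and 11.86 on the control arrays and 12.03, 11.95 and 11.88 on the mutant arrays. *Dsp*, encoding desmoplakin, read 12.08, 12.23 and 12.17 on the control arrays and 12.15, 12.02 and 12.12 on the mutant arrays. Neither gene separated the groups. Their differences were 0.023 ± 0.094 (adjusted p = 0.952) and -0.062 ± 0.095 (SE; adjusted p = 0.857). The 95% intervals, 0.87-fold to 1.18-fold for *Jup* and 0.82-fold to 1.12-fold for *Dsp*, leave out a change as large as that of *Dsc2*, as far as the array's scale is linear at such bright signals, which was not tested.

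The plakophilins bind desmoplakin and gather it at the plaque. *Pkp1*, the plakophilin of suprabasal squamous cells, read 11.70, 11.65 and 11.70 on the control arrays and 11.76, 11.48 and 11.56 on the mutant arrays. *Pkp3*, which is found through most layers of stratified epithelia, read 9.71, 9.61 and 9.70 on the control arrays and 9.68, 9.71 and 9.68 on the mutant arrays. The mutant arrays of *Pkp1* scattered around the controls and those of *Pkp3* fell inside their range but for mutant 2, which exceeded the highest control slightly. The differences were -0.085 ± 0.104 for *Pkp1* (adjusted p = 0.814; 95% interval 0.80-fold to 1.12-fold) and 0.016 ± 0.087 for *Pkp3* (SE; adjusted p = 0.962; 0.88-fold to 1.16-fold). Of all genes, 92.2% had a larger difference than *Pkp3* in either direction and 88.9% a larger one than *Jup*.

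Replicate 1, the male of each genotype, often read highest for the 8 measured genes. Mutant 1 was the highest mutant array for 6 of the 8 genes, and control 1 was the highest control array for 5. The exceptions on the mutant side were *Dsg2* and *Pkp3*. The same count was not made over all genes, so the pattern is not read as particular to these 8. Each genotype held only 1 male, so sex and animal cannot be told apart here. An interaction of genotype and sex in limma, with no replicate male, passed for 0 of the 8 genes and for 0.0451% of all genes, and decides nothing about them.

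Promoter sequences from RefSeq (GRCm38.p6) were at hand for 2 of the 10 genes, *Jup* and *Dsp*, the plaque genes that join the cadherins to keratin. They are shown because the targeted factor belongs to the Krüppel-like family, which binds CACCC-type sequences. Each is given 5′ to 3′ on the gene's strand and stops before the annotated gene begins. Capitals mark CACCC or its reverse complement GGGTG. *Jup* is on the minus strand at chr11:100397840-100398040, a window of 201 bases, and *Dsp* on the plus strand at chr13:38151044-38151293, a window of 250 bases.
Jup: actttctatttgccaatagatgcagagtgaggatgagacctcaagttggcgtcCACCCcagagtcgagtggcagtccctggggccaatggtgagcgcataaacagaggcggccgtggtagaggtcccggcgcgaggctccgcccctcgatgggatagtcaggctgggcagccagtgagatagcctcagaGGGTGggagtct
Dsp: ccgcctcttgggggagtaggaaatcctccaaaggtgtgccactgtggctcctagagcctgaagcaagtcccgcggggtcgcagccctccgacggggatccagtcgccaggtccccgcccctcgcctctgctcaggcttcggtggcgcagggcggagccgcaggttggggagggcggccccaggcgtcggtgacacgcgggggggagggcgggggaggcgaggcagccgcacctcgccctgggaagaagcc
The *Jup* window held 2 matches, 1 of each form, and the *Dsp* window 0. Among 32851 promoter windows of the table, 44.6% held at least 1 match and 15.2% at least 2 over the *Jup* length, and 52.0% held at least 1 over the *Dsp* length. A match describes letters only, and neither gene's expression passed the test.

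Other genes of the desmosome and its cornified derivative, 10 in number, were all measured: 0 rose, 1 fell and 9 did not pass, with a median difference of -0.062. *Evpl*, encoding envoplakin, a plakin that joins desmosomes to the cornified envelope, read 10.39, 10.37 and 10.47 on the control arrays and 9.00, 9.54 and 9.60 on the mutant arrays. The groups were far apart. It fell by 1.03 ± 0.16 (SE; adjusted p = 0.0370), and its call was lost without control 1, 2 or 3 and without mutant 2 or 3 (adjusted p = 0.0746, 0.0875, 0.167, 0.0828 and 0.0603). *Cdsn*, encoding corneodesmosin, the glycoprotein added to desmosomes in the outermost layers, read 12.00, 11.79 and 11.89 on the control arrays and 10.79, 11.31 and 11.23 on the mutant arrays. *Ppl*, encoding periplakin, the partner of envoplakin, read 11.99, 11.88 and 11.87 on the control arrays and 11.36, 11.46 and 11.69 on the mutant arrays. Both had all mutant arrays below all controls, and neither passed: *Cdsn* differed by -0.78 ± 0.15 (adjusted p = 0.0701) and *Ppl* by -0.40 ± 0.11 (SE; adjusted p = 0.175). These 3 were the genes of the list with lower, non-overlapping groups, against 8.00% of all genes.

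Of the rest of that list, *Perp*, encoding a tetraspan membrane protein of desmosomes, differed by 0.055 ± 0.099, and *Pkp4*, a plakophilin relative found at several junctions, by 0.090 ± 0.207. *Kazn*, whose product binds periplakin, differed by -0.25 ± 0.17 (SE). *Pkp2*, the plakophilin of heart and simple epithelia, had non-overlapping groups with higher mutant values, but its mean of 3.79 lay under the dim limit. None of these 4 passed (adjusted p between 0.483 and 0.916).

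**Figure D4:**
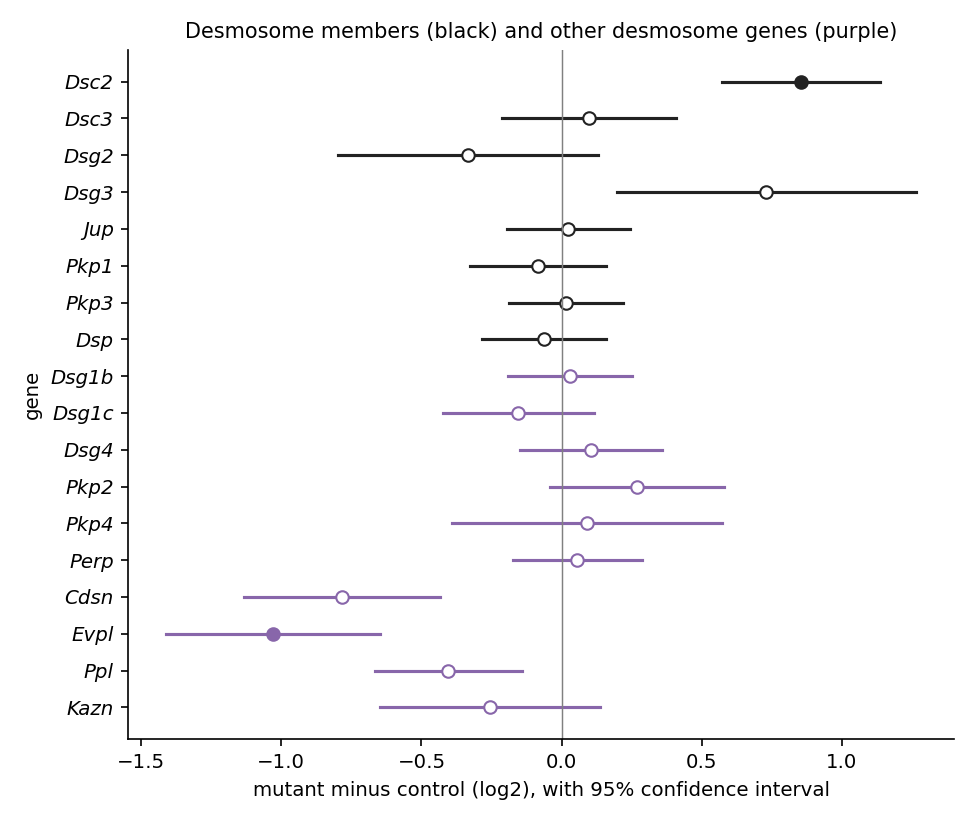
Difference between mutant and control (log2) with its 95% confidence interval for the 8 measured desmosome genes (black) and 10 other desmosome genes (purple); filled points pass an adjusted p of 0.05 in limma. *Dsc2* at 0.85 and *Evpl* at -1.03 are the filled points. The plaque genes *Jup*, *Pkp1*, *Pkp3* and *Dsp* have short intervals around 0, as do *Dsg1b* and *Perp*.

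Genes that work with desmosomes were read in lists of their own. In the adherens junction list, 0 of 13 genes passed (median -0.0044). Its smallest p-values belonged to *Lmo7*, an adaptor at the junction (-0.62 ± 0.15, adjusted p = 0.124), and *Cdh1*, encoding E-cadherin (0.21 ± 0.088, SE; adjusted p = 0.378). Among 14 keratins, to which the plaque attaches, *Krt80* and *Krt76* fell by 1.49 ± 0.24 and 1.16 ± 0.12 (SE; adjusted p = 0.0370 and 0.0118), 0 rose and 12 did not pass (median -0.079, mean 0.14). The largest differences of the list, chosen after their values were seen, were those of the stress keratins *Krt6a* (3.30 ± 0.76, adjusted p = 0.113) and *Krt6b* (3.27 ± 0.85, SE; adjusted p = 0.153), which are near-identical in sequence and can share signal. The groups did not overlap for 4 keratins with higher mutant values and 2 with lower ones, against 10.1% and 8.00% of all genes. *Krt80* passed without mutant 3 and did not pass without control 1, 2 or 3 or without mutant 1 or 2 (adjusted p = 0.0790, 0.0823, 0.160, 0.0845 and 0.133), and *Krt76* did not pass without control 3 (adjusted p = 0.0642). *Krt76* read 4.48, 4.28 and 4.47 on the mutant arrays, all under the dim limit of 4.72, so the size of its fall is uncertain. Among 23 regulators and proteases of desmosomes, *Klk5*, a kallikrein that cleaves corneodesmosomes, fell by 2.50 ± 0.39 (SE; adjusted p = 0.0353), 0 rose and 22 did not pass (median -0.080). *Klk5* lost its call without control 1, 2 or 3 and without mutant 1 or 3 (adjusted p = 0.0741, 0.0875, 0.122, 0.105 and 0.112). It read 4.18 and 4.35 on mutants 1 and 3, under the dim limit, and 5.76 on mutant 2, so its size is uncertain too. With sex as a covariate neither *Krt80* nor *Klk5* passed (adjusted p = 0.0531 and 0.0612), and in the females alone neither these nor *Evpl* did (adjusted p = 0.136, 0.152 and 0.0723).

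Markers of the cell layers and of other cell types were read beside these genes. Of 15 basal keratinocyte markers 0 passed and 12 were lower (median -0.21), with array means from 8.85 to 8.95 on the controls and from 8.57 to 8.82 on the mutants. *Lama3* and *Lamb3*, laminin subunits that basal cells secrete, differed by -0.50 ± 0.10 and -0.49 ± 0.10 (SE; adjusted p = 0.0835 and 0.0928). Of 17 suprabasal squamous markers 0 passed (median -0.043), the smallest p-values being those of *Ivl*, encoding involucrin, at -0.70 ± 0.14 from a dim signal, and *Sbsn*, encoding suprabasin, at -0.50 ± 0.12 (SE; adjusted p = 0.0779 and 0.124).

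Of 21 fibroblast markers 4 fell, 0 rose and 17 did not pass, while 0.672% of all genes fell. All 21 had a lower mutant mean (median -0.91), 17 of them with non-overlapping groups, and *Col1a2*, *Fn1*, *Sparc* and *Thy1* fell by 1.30 ± 0.19, 1.26 ± 0.18, 1.10 ± 0.17 and 0.58 ± 0.10 (SE; adjusted p from 0.0246 to 0.0479). The list's mean ran from 7.66 to 8.36 on the control arrays and from 7.04 to 7.23 on the mutant arrays, and no marker was under the dim limit. *Col1a2*, *Fn1* and *Sparc* kept their call without control 1 and lost it without any other single array (adjusted p from 0.0604 to 0.134), and *Thy1* lost it without each of the 6 in turn (from 0.0771 to 0.212). Smooth muscle markers were lower for 11 of 12 genes (median -0.75), with means from 7.85 to 8.48 on the controls and from 7.04 to 7.73 on the mutants; *Tagln* and *Cnn1* led with -0.89 ± 0.17 and -1.09 ± 0.21 (SE; adjusted p = 0.0717 and 0.0758). With the mean of these markers as a covariate the *Dsc2* difference was 0.82 ± 0.30 (SE; adjusted p = 0.729), close in size to 0.85 but with a wider error. Both marker lists had higher means on every control array than on every mutant array. The fit therefore cannot separate these markers from genotype, and the similar size decides nothing. Under the same covariate *Evpl* differed by -0.94, *Krt80* by -1.91 and *Klk5* by -2.08, none of them past the test (adjusted p = 0.834, 0.556 and 0.853).

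Skeletal muscle markers varied most between animals, with overlapping array means of 5.98 to 10.37 on the controls and 6.16 to 8.90 on the mutants. All 14 had a lower mutant mean and 0 passed (median -0.76, which was -2.72 in the females alone, 0.22 without control 2 and 0.14 without mutant 3). *Pvalb* and *Myh2* had the smallest p-values there, at -1.06 ± 0.74 and -0.61 ± 0.46 (SE; adjusted p = 0.656 and 0.680). Among 12 endothelial markers *Flt1* fell by 1.90 ± 0.19 (adjusted p = 0.00982), with 11 not passing (median -0.015) and *Kdr* and *Emcn* dim. Among 14 leukocyte markers *Lyz2* fell by 1.57 ± 0.27 and *Cd68* rose by 1.11 ± 0.17 (SE; adjusted p = 0.0463 and 0.0304), with 12 not passing (median 0.032) and 6 dim. *Lyz2* kept its call without control 1 and *Cd68* without mutant 1, and each lost it without any other single array (adjusted p from 0.0700 to 0.158 and from 0.0541 to 0.126). *Lyz2* also did not pass after quantile normalization or with sex as a covariate (adjusted p = 0.0543 and 0.0761), nor *Cd68* in the females alone (adjusted p = 0.0560). Markers of simple epithelium and glands, tissues that also use *Dsc2* and *Dsg2*, passed for 0 of 13 genes (median -0.025), with 7 dim. *Epcam* and *Krt19* had the smallest p-values, at 0.63 ± 0.11 and 0.20 ± 0.14 (SE; adjusted p = 0.0547 and 0.650).

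**Figure D5:**
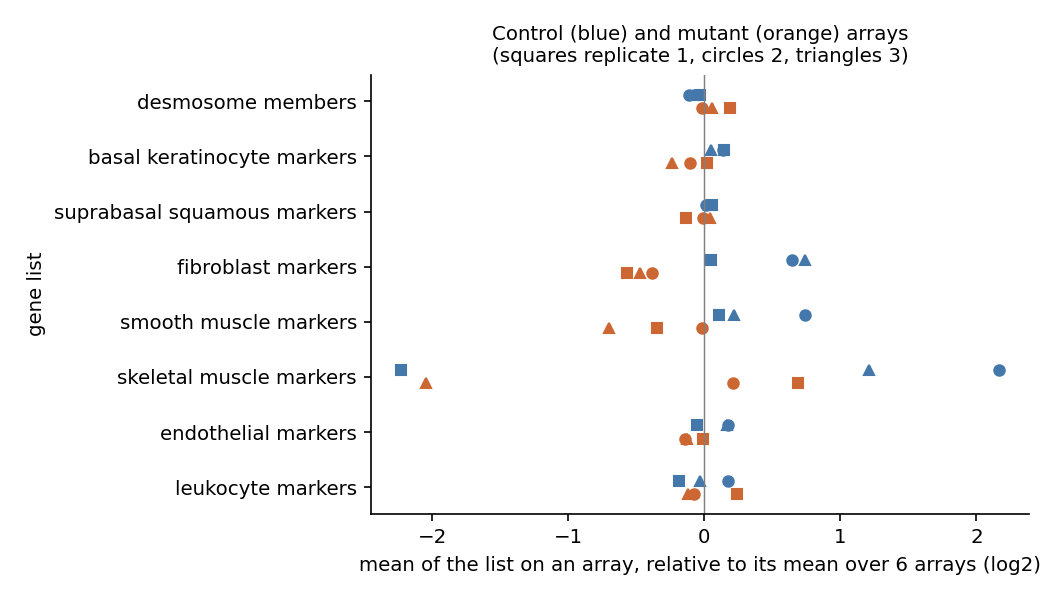
Mean of each gene list on each array, relative to the list's mean over the 6 arrays (log2), with control arrays in blue and mutant arrays in orange; squares are replicate 1, circles replicate 2 and triangles replicate 3. The control and mutant arrays do not overlap for fibroblast, smooth muscle and basal keratinocyte markers. They also do not overlap for the mean of the 8 desmosome genes (controls -0.12 to -0.030, mutants -0.015 to 0.19). That mean includes *Dsc2*, whose own values ran from -0.58 to -0.28 on controls and from 0.27 to 0.56 on mutants. The median difference of the 8 genes was 0.020, against 0.022 for all genes. Of the 8, 2 had non-overlapping groups, both higher on the mutant arrays, against 10.1% of all genes in that direction. Skeletal muscle markers overlap and spread from -2.23 to 2.16.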

How the data were processed

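RNA of esophageal epithelium from 6 mice was hybridised to 1 array each. The deposited table holds log2 values normalized by the authors for 28853 probe sets. The submitters' processing notes name Partek 6.4 and no other tool; how background and normalization were handled is not given in the sources used here. The log2 scale was read from the values. Probe sets naming 1 gene (21789) were kept, with symbols updated to GRCm38.p6 through Entrez identifiers (21698 matched), and the brightest was used per gene, giving 19938 genes.

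Mutant and control arrays were compared with limma 3.58.1 in R 4.3.3 using lmFit and eBayes with genotype as the only term (two-sided; 4 residual and 7.58 moderated degrees of freedom). P-values were adjusted by Benjamini-Hochberg across the whole table, and 0.05 was the threshold. An exact permutation test of 3 against 3 arrays, whose smallest p is 0.1, was left out. The steps were tested on simulated data. Genes outside the family were named by rule: all 10 other desmosome genes, and from each further list up to 4 passing genes or the 2 with the smallest p; *Krt4* and *Krt5* were added to check the tissue. Members and lists (180 entries, 178 measured) were chosen with earlier results of these data known. The planned isoform contrast used *Dsc1* and *Dsg1a*; *Dsg1b* replaced them after seeing the data. Alternatives were another normalization, centring, a dim filter, averaged probe sets, a replicate block, sex, females alone, an intensity trend, array weights, stromal markers as a covariate and each array left out. Python 3.11.15 and matplotlib 3.10.9 drew the plots.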

Additional observations from a re-analysis of the deposited data

How the results depend on the processing

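Quantile normalization, median centring, the dim filter, averaged probe sets, sex as a covariate and the intensity trend left the calls of the 8 desmosome genes and their directions as reported, and counts of all called genes within 1.5 times. Leaving out 1 array gave 44 to 193 called genes (23 to 55 higher, 21 to 138 lower), 0 to 1 called desmosome genes, and differences of 0.78 to 0.93 for *Dsc2*, -0.018 to 0.061 for *Jup*, -0.013 to 0.033 for *Pkp3* and -0.14 to 0.23 for *Pkp4*. With the females alone 83 genes were called (28 higher, 55 lower), 0 of them desmosome genes, with *Dsc2* at 0.79 and *Pkp4* at -0.018. Array weights called 370 (131 higher, 239 lower).

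With the replicate number as a block, 81 genes were called (35 higher, 46 lower) and 0 desmosome genes, with *Dsc2* at 0.85 (adjusted p = 0.0863). *Evpl*, *Krt80*, *Klk5*, *Sparc*, *Thy1*, *Lyz2* and *Cd68* also lost their calls there (adjusted p from 0.0608 to 0.108). The labels do not say that equal numbers pair animals, and same-numbered arrays correlated at -0.17, 0.090 and -0.10 in their deviations, so the numbers were not read as pairs.

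With the stromal marker mean as a covariate 3 genes were called (3 higher, 0 lower) and 0 desmosome genes. *Dsc2* was 0.82, *Dsc3* -0.034, *Jup* -0.061, *Pkp3* -0.044, *Dsp* 0.034, *Pkp4* -0.52, *Perp* -0.054, *Pvalb* 2.93 and *Myh2* 1.44, and the isoform contrasts were -0.076 and -0.056. The SE of *Dsc2* was 0.30 there against 0.12 as reported. Fibroblast and smooth muscle means were higher on every control array than on every mutant array, so this fit cannot separate them from genotype. Its counts and turned signs decide nothing, and the cause of the turned signs was not tested. The planned contrast with *Dsc1* and *Dsg1a* was not run, since neither has a probe set of its own here.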
